A study of Homo sapiens with 9 samples.

Results

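The genes described here are 9 transcription factors of the squamous epithelial lineage: TP63, TFAP2A, PITX1, KLF4, KLF5, GRHL2, GRHL3, OVOL1 and ZNF750. They are given by name, as regulators of stratified epithelium, from a choice made with earlier results of these data known, and they are 9 of the 78894 gene identifiers in the deposited tables. All 9 were found by symbol, and all 9 passed the filter on low values. RNA was measured by sequencing in CAL27, an established line grown from a human tongue carcinoma of squamous type, for a study of an enhancer active in such tumours of the head and neck. The groups were Control (3 samples) and the CRISPR-edited knockouts A2ko, A8ko and C9ko (2 samples each), all in CAL27 and with no drug or other agent given. The labels name neither the sequence edited in any knockout nor how the Control cells were handled, and leave unsaid if the cells of a knockout were a single clone or a mixture. No edited target could therefore be checked.

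Squamous epithelium is built and renewed by a layered set of such factors. p63, the protein of TP63, is the p53-family factor that commits cells to the stratified lineage and maintains basal cells, and AP-2 proteins such as TFAP2A act with it in that commitment. KLF5 is a zinc-finger factor of proliferating basal cells, while KLF4, GRHL3, OVOL1 and ZNF750 are best known from the programme that takes cells out of the basal layer and builds the barrier. GRHL2, of the grainyhead-like family, maintains junction genes such as CDH1 and CLDN4, and PITX1 is a homeodomain factor of oral epithelium and of the hindlimb.

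The files of the A2ko pair held identical values for all identifiers, and so did those of the A8ko pair. A pair of this kind entered once, so the libraries that differ number 7, with 3 of Control, 2 of C9ko and 1 each of A2ko and A8ko. A2ko and A8ko values have no replicates, and no p-value is given for them. Values are TPM, a share of the library scaled by gene length, from which the number of reads behind a value cannot be recovered, so depth is unknown. The number of genes at 1 TPM or more was 16716 in A2ko and ran from 15556 to 15954 in the other libraries. Genes of the mitochondrial genome took 23.1% to 26.9% of TPM in Control, 25.2% in A2ko, 20.6% in A8ko and 17.9% to 20.2% in C9ko. Keratinocyte markers were present in every library, with KRT5 at 3081 TPM or more, but their sum was lower in every knockout library. The 8 markers summed to 16383 to 17457 TPM in Control and 6539 TPM in A2ko. The sum was 7621 TPM in A8ko, and 10145 and 9979 TPM in C9ko. The 8 markers did not all move alike. By the limma test described below, 4 were called lower in C9ko (7.42% of all tested genes), 1 higher (22.0%) and 3 not called. The summed markers of fibroblasts, endothelium, blood cells and melanocytes did not exceed 17.7, 30.1, 66.6 and 4.38 TPM. COL3A1 of fibroblasts, KDR of endothelium and TYR of melanocytes were listed at 0 in all 7 libraries. The endothelial sum was mostly CDH5, with a mean of 3.70 TPM in Control, 12.6 TPM in A2ko, 8.15 TPM in A8ko and 25.9 TPM in C9ko, and the blood sum was mostly CD68, with 29.7, 35.4, 66.3 and 14.2 TPM. Their part in the results was not tested. In bulk RNA, fewer cells of a type and less RNA per cell cannot be told apart.

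C9ko was compared with Control by limma on log2(TPM + 1) over all 17100 tested genes, with Benjamini-Hochberg adjustment and a call at an adjusted p under 0.05. Of the 9 factors, 6 were called: KLF4, OVOL1 and TFAP2A rose, and KLF5, GRHL3 and ZNF750 fell. Among all tested genes 29.5% were called, 22.0% as higher and 7.42% as lower. Of the 5038 called genes 3770 were higher, against 2626 of 4813 after median-of-ratios scaling, which centres the libraries on their typical gene. TP63, GRHL2 and PITX1 were not called. At an unadjusted p under 0.05 the count was 7 of the 9 factors and 7108 of all tested genes. The labels do not say that samples of a group came from separate cultures, so these p-values measure the spread between the samples, which may be technical. Without the mitochondrial genes, 7 of the 9 factors were called, GRHL2 being the added one, and 28.0% of the 17063 genes then tested were called.

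In Control the factors spanned a wide range of levels. TPM is scaled by length, so levels can be set side by side between genes. TP63 was the highest, with a mean of 281 TPM, above 97.5% of tested genes. KLF5 followed at 114 TPM, TFAP2A at 58.7 TPM, GRHL2 at 53.4 TPM, PITX1 at 33.8 TPM and KLF4 at 26.2 TPM. ZNF750 at 14.2 TPM, OVOL1 at 5.95 TPM and GRHL3 at 2.01 TPM were the lowest, and GRHL3 lay above only 21.8% of tested genes. No neighbours in this order overlapped in their 3 Control libraries. The order differed in C9ko, where TFAP2A (76.8 TPM) stood above KLF5 (63.3 TPM), KLF4 (41.3 TPM) above PITX1 (37.0 TPM), and OVOL1 (14.2 TPM) above ZNF750 (4.50 TPM).

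**Figure D1:**
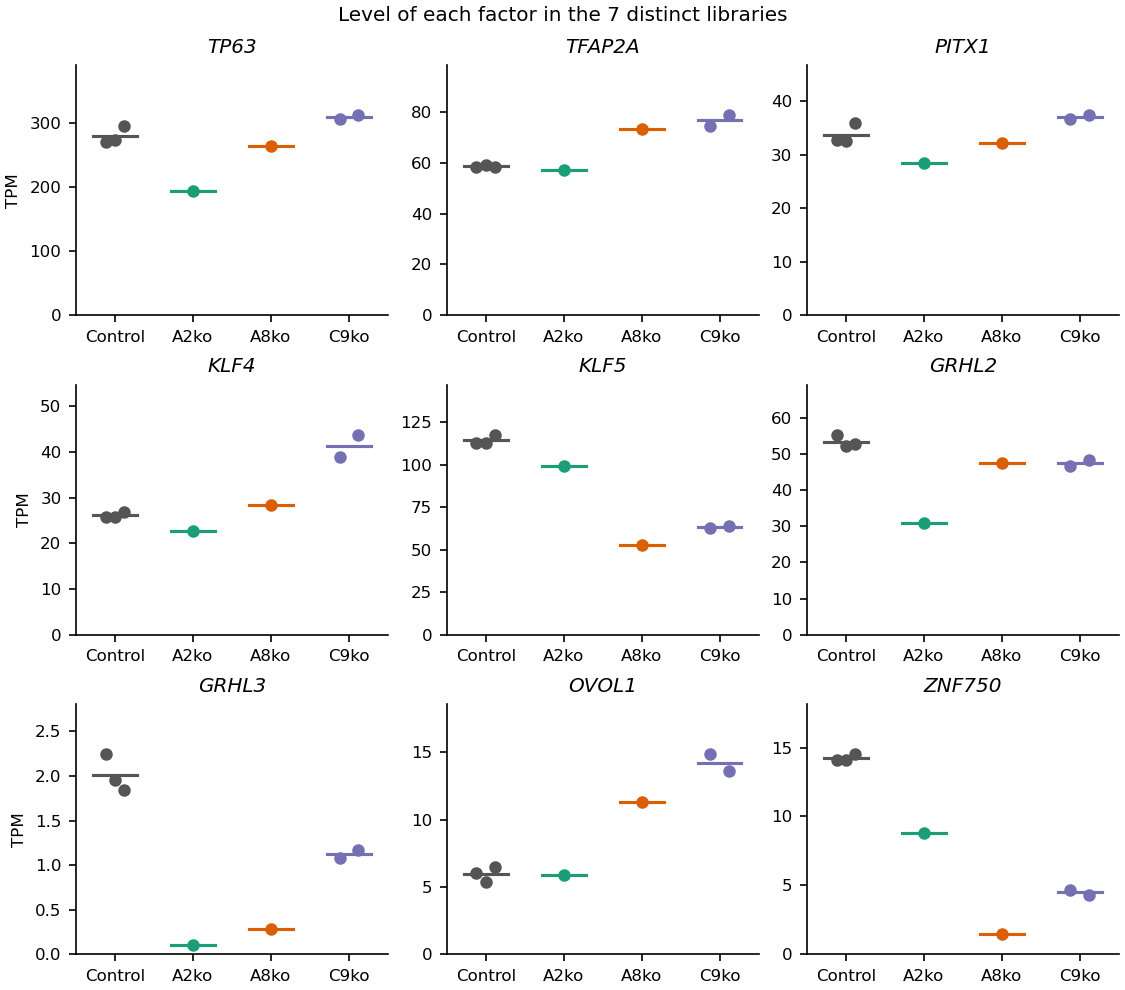
Level in TPM of each of the 9 factors, 1 panel a gene with its own vertical axis from 0. Each point is 1 distinct library and each line the group mean of Control (3 libraries), A2ko (1), A8ko (1) and C9ko (2). KLF5, GRHL2, GRHL3 and ZNF750 are below the Control points in all 4 knockout libraries, and OVOL1 is high in A8ko and C9ko only.

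Upstream sequence is shown for 3 of the called factors, KLF4 and TFAP2A, which rose in C9ko, and KLF5, which fell. The sequences are from RefSeq on GRCh38.p14, the 250 bases before a RefSeq start on the gene's own strand, and each window overlaps no exon of GENCODE 29. The KLF4 window nevertheless lies inside the KLF4 gene of GENCODE 29 (chr9:107484852-107490482), which starts further upstream. The TFAP2A and KLF5 windows lie outside their GENCODE 29 genes. Letters of the GC-rich box read by KLF proteins, searched as CCNCNCCC on both strands with overlaps allowed, are in capitals. The KLF4 window is at chr9:107489770-107490019, minus strand, the TFAP2A window at chr6:10419660-10419909, minus strand, and the KLF5 window, the more upstream of its listed starts, at chr13:73054726-73054975, plus strand.
KLF4: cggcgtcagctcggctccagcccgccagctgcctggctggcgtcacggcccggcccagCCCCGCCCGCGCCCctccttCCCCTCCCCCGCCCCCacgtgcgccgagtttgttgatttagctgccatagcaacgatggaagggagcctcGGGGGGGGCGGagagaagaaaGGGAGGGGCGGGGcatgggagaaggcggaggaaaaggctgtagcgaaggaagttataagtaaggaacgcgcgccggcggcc
TFAP2A: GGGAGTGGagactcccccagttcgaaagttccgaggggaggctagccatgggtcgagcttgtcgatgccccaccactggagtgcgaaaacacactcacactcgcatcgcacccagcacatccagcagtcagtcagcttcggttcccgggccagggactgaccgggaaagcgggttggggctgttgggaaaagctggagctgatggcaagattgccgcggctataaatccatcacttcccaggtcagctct
KLF5: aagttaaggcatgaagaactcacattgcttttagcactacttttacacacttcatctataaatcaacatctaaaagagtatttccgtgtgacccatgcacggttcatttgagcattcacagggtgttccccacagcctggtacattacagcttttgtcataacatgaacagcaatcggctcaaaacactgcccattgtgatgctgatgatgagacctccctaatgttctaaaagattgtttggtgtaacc
These letters match at 10 places in the KLF4 window, at 1 in the TFAP2A window and at none in the KLF5 window. The more downstream windows of KLF5 and TFAP2A, which overlap exons and are not printed, hold 3 and 11 matches, and PITX1 has 8, GRHL3 3 in its upstream window and TP63 none. Of 35116 RefSeq promoter windows of 300 bases, 56.2% hold at least 1 match, so a match is common. RefSeq windows of 6 of the 9 factors were searched, 9 windows in all. No window of GRHL2, OVOL1 or ZNF750 was searched, so the matches given here do not cover these factors. In those windows the grainyhead-like letters AACCGGTT (0.134% of all windows), the PITX letters TAATCC (6.36%), the AP-1 letters TGANTCA (7.71%) and the OVOL1 letters CCGTTA (3.07%) had no match, on either strand. The AP-2 letters GCCNNNGGC (23.2% of all windows) matched once in the KLF4 window and once in the downstream GRHL3 window. A match says only that these letters are present.

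Of the factors of lineage commitment, TFAP2A rose in C9ko, whereas TP63 and PITX1 moved by little there and did not pass the test. TP63 (ENSG00000073282, chr3:189631416-189897279, plus strand in GENCODE 29 on GRCh38) was at 271, 274 and 296 TPM in the Control libraries, 194 TPM in A2ko, 265 TPM in A8ko, and 308 and 313 TPM in C9ko. The A2ko library was low, A8ko lay just below the Control range, and both C9ko libraries lay above it. On the log2(TPM + 1) scale C9ko differed from Control by 0.15 (SE 0.07, limma adjusted p = 0.144), A8ko by -0.08 and A2ko by -0.53. The gene makes forms with and without the N-terminal transactivation domain, which a value per gene does not separate.

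TFAP2A (ENSG00000137203, chr6:10393186-10419659, minus strand) was at 58.3, 59.2 and 58.6 TPM in Control, 57.3 TPM in A2ko, 73.3 TPM in A8ko, and 74.8 and 78.9 TPM in C9ko. The Control libraries lay within 1 TPM of each other (SD 0.487, n = 3), and A8ko and C9ko lay above all of them, with A2ko slightly below. TFAP2A rose by 0.38 (SE 0.06) in C9ko, with a limma adjusted p of 0.00366, and the difference was 0.32 in A8ko and -0.04 in A2ko. With the shared replicate numbers as a block the adjusted p for C9ko was 0.0531.

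PITX1 (ENSG00000069011, chr5:135027735-135034813, minus strand) was at 32.8, 32.6 and 35.9 TPM in Control, 28.4 TPM in A2ko, 32.2 TPM in A8ko, and 36.7 and 37.4 TPM in C9ko. It varied least of the 9 across the libraries, over 0.38 on the log2 scale from lowest to highest. The C9ko difference of 0.13 (SE 0.07) gave a limma adjusted p of 0.206.

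The pair of Krüppel-like factors moved in opposite directions in C9ko. KLF4 (ENSG00000136826, chr9:107484852-107490482, minus strand) was at 25.9, 25.7 and 26.9 TPM in Control, 22.7 TPM in A2ko, 28.4 TPM in A8ko, and 38.9 and 43.8 TPM in C9ko. Both C9ko libraries were well above Control, A8ko was just above and A2ko below. KLF4 rose by 0.64 (SE 0.07, limma adjusted p = 0.00112) in C9ko, and the differences were 0.12 in A8ko and -0.20 in A2ko.

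KLF5 (ENSG00000102554, chr13:73054976-73077542, plus strand) was at 113, 113 and 118 TPM in Control, 99.1 TPM in A2ko, 53.0 TPM in A8ko, and 62.7 and 63.9 TPM in C9ko. All 4 knockout libraries lay below Control, A2ko by little and the others by much more. In C9ko KLF5 fell by 0.84 on the log2(TPM + 1) scale (SE 0.06, limma adjusted p = 0.000127), to 0.553 times the Control level in TPM. The A8ko difference was -1.10 and the A2ko difference -0.21. The ratio of KLF4 to KLF5 in TPM was 0.228 ± 0.00138 (SD, n = 3) in Control and 0.229 in A2ko. It was 0.537 in A8ko, and 0.620 and 0.685 in C9ko. This ratio, like the other ratios given here, was chosen after the values were seen.

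Both grainyhead-like factors were lower in every knockout library than in every Control library. GRHL2 (ENSG00000083307, chr8:101492432-101669726, plus strand) was at 55.3, 52.2 and 52.7 TPM in Control, 31.0 TPM in A2ko, 47.6 TPM in A8ko, and 46.6 and 48.5 TPM in C9ko. A2ko stood apart from the others, at 0.581 times the Control mean. The C9ko difference was -0.17 (SE 0.06, limma adjusted p = 0.0913), with -0.16 for A8ko and -0.76 for A2ko. GRHL2 was called in C9ko after median-of-ratios scaling, with a difference of -0.30 and an adjusted p of 0.00623.

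GRHL3 (ENSG00000158055, chr1:24319322-24364482, plus strand), a factor of barrier formation, was at 2.24, 1.95 and 1.84 TPM in Control, 0.108 TPM in A2ko, 0.288 TPM in A8ko, and 1.08 and 1.16 TPM in C9ko. All knockout libraries lay below Control, and A2ko and A8ko were far below C9ko as well. On the log2(TPM + 1) scale, which understates changes at such low levels, GRHL3 fell by 0.50 in C9ko (SE 0.15, limma adjusted p = 0.0434), and differed by -1.22 in A8ko and by -1.44 in A2ko. The C9ko call for GRHL3 was lost when any 1 Control or C9ko library was left out (adjusted p from 0.0745 to 0.153), with a pseudocount of 0.1 TPM (0.0874), without the filter on low values (0.0764) and with the replicate block (0.0842). GRHL2 was present at 26.7 ± 1.98 (SD, n = 3) times the GRHL3 level in Control, at 287 times in A2ko, at 165 times in A8ko, and at 43.0 and 41.6 times in C9ko. The A2ko and A8ko ratios divide by GRHL3 levels of 0.108 and 0.288 TPM in 1 library each, so their precision is unknown.

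The remaining factors of differentiation, OVOL1 and ZNF750, moved in opposite directions in C9ko. OVOL1 (ENSG00000172818, chr11:65787022-65797219, plus strand), a zinc-finger repressor tied to growth arrest of committed keratinocytes, was at 6.00, 5.37 and 6.49 TPM in Control, 5.87 TPM in A2ko, 11.3 TPM in A8ko, and 14.8 and 13.6 TPM in C9ko. A2ko lay within the Control range, and A8ko and C9ko lay well above it. OVOL1 rose by 1.13 in C9ko (SE 0.10, limma adjusted p = 0.000330), the largest rise of the 9, to 2.39 times the Control mean in TPM, and the A8ko difference was 0.82. Its paralogue OVOL2 was at 5.55 ± 0.420 TPM (SD, n = 3) in Control and at a mean of 4.66 TPM in C9ko, a difference of -0.21 with a limma adjusted p of 0.168. The ratio of OVOL1 to OVOL2 was 1.08 ± 0.150 (SD, n = 3) in Control, 3.33 and 2.81 in C9ko, 3.01 in A8ko and 1.61 in A2ko.

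ZNF750 (ENSG00000141579, chr17:82829435-82840578, minus strand), a p63 target that switches on late differentiation genes, was at 14.1, 14.1 and 14.5 TPM in Control, 8.82 TPM in A2ko, 1.46 TPM in A8ko, and 4.69 and 4.31 TPM in C9ko. All 4 knockout libraries were below Control, A8ko the lowest and A2ko the nearest to Control. In C9ko ZNF750 fell by 1.47 (SE 0.08, limma adjusted p = 6.14e-05), to 0.316 times the Control level in TPM. The level was 0.103 times the Control mean in A8ko, a difference of -2.63, and 0.620 times in A2ko, a difference of -0.63. ZNF750 had the widest range of the 9 across the libraries, 2.65 on the log2(TPM + 1) scale.

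**Figure D2:**
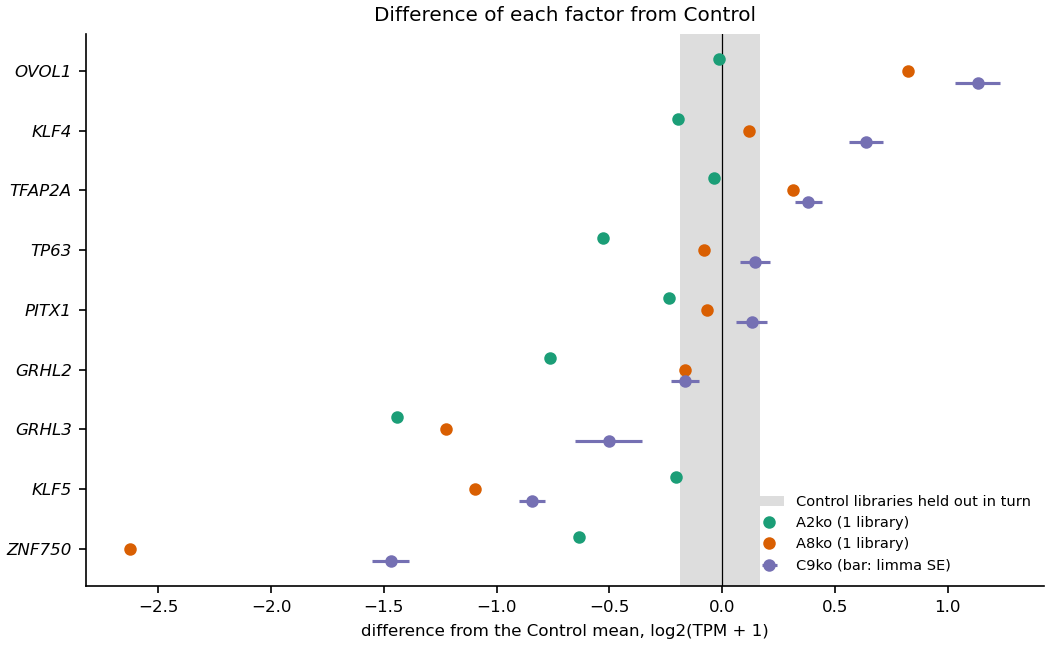
Difference of each factor from the Control mean on the log2(TPM + 1) scale, for A2ko and A8ko (1 library each) and for C9ko with the limma standard error as a bar. The grey band, from -0.19 to 0.17, is the range of the 9 factors when each Control library is held against the other Control libraries, and ZNF750, KLF5 and GRHL3 lie below it in all 3 knockouts.

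The 3 knockouts can be set beside each other by these values. In A2ko, 8 of the 9 factors lay below all Control libraries, where 26.3% of all tested genes did, and none lay above (50.4% of all tested genes). A8ko had 6 factors below (26.4% of all tested genes) and 3 above (46.9%). C9ko had 4 below (16.4% of all tested genes) and 5 above (41.1%). Beyond the Control range and 1 log2 unit or more away from its mean lay GRHL3 alone in A2ko (5.07% of all tested genes, 1.53% as lower). In A8ko these were KLF5, GRHL3 and ZNF750 (4.73% of all tested genes, 2.68% as lower). When each Control library was held against the other Control libraries, none of the 9 factors lay that far out, against 0.614% to 0.661% of all tested genes. KLF5, GRHL2, GRHL3 and ZNF750 lay below all Control libraries in all 4 knockout libraries (4.61% of all tested genes), and none of the 9 lay above in all (17.0%). The 3 knockouts share their Control libraries, so these counts are not independent of each other.

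With the knockouts taken as 1 group, each knockout as 1 value, 0 of the 9 factors were called by limma at an adjusted p under 0.05, and 1.03% of all tested genes were called. These were 176 genes, 87 of them higher, against 140 and 42 after median-of-ratios scaling. At an unadjusted p under 0.05 there were 3 factors and 2740 genes. The largest differences were -1.58 for ZNF750 (adjusted p = 0.174), -1.06 for GRHL3 (adjusted p = 0.137) and -0.72 for KLF5 (adjusted p = 0.186), all by limma. Without A2ko, 4 of the 9 were called, KLF5 and ZNF750 as lower and OVOL1 and TFAP2A as higher. That fit called 1993 genes in all, against 176 with A2ko included.

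Scaling mattered for the small differences. In the deposited TPM the median tested gene stood above Control by 0.12 (A2ko), 0.09 (A8ko) and 0.11 (C9ko). Median-of-ratios scaling moved these medians to within 0.01 of 0. TP63 and PITX1 then overlapped Control in C9ko, with differences of 0.01 and 0.00, KLF4 overlapped Control in A8ko, and OVOL1 lay below Control in A2ko at -0.13. KLF5, GRHL2, GRHL3 and ZNF750 were below all Control libraries in all 4 knockout libraries under this scaling too.

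Tested genes flanking each factor on its chromosome were compared with it, taking the 10 on each side. By their starts, these sets spanned from 0.364 megabases for OVOL1 to 24.3 megabases for KLF5, so a neighbour here may be distant. For ZNF750, near the end of chromosome 17, only 2 tested genes lay beyond it, which gave 12 in all. The ZNF750 neighbours had median differences for A2ko, A8ko and C9ko of 0.16, 0.10 and 0.10, and none was as low as ZNF750 in any knockout. The KLF5 neighbours had medians of -0.08, 0.11 and 0.20, and in A8ko and C9ko 1 of 20 was lower than KLF5. That gene was OLFM4, named here after its value was seen, a secreted glycoprotein gene, at -4.75 in A8ko and -2.88 in C9ko. By position OLFM4 stood toward the outer end of the KLF5 set, not beside KLF5. None of the 20 GRHL3 neighbours was as low as GRHL3 in A2ko or A8ko, and 2 were in C9ko. OVOL1 stood above 17 of its 20 neighbours in A8ko and above 19 of 20 in C9ko, and KLF4 above 18 of 20 in C9ko. The neighbours of GRHL2 had medians of 0.03, 0.03 and 0.00, and 1 of 20 was lower than GRHL2 in A2ko. That neighbour was ENSG00000254024, at -1.18, an RNA that overlaps GRHL2 on the opposite strand. Tested genes that overlap a factor in this way are counted among its neighbours. For TP63 the medians were 0.31, -0.18 and 0.12, and 2 of 20 neighbours were lower than TP63 in A2ko. PITX1 and TFAP2A lay within the range of their neighbours in all 3 knockouts.

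**Figure D3:**
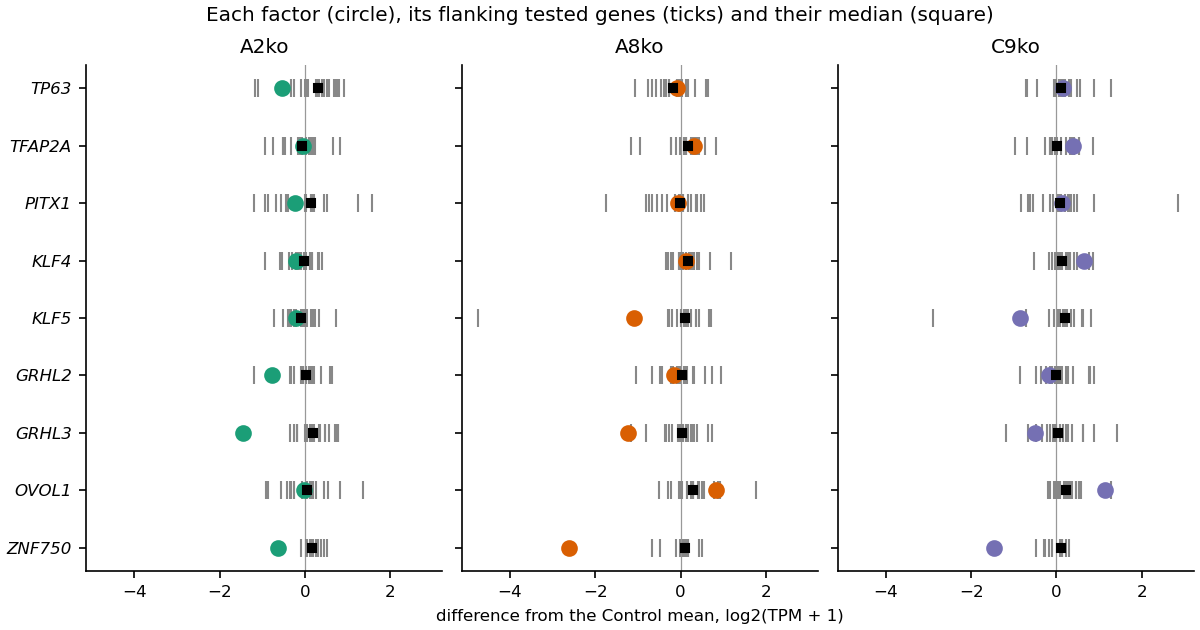
Difference from the Control mean on the log2(TPM + 1) scale in each knockout, for each factor (coloured circle), its flanking tested genes (grey ticks) and their median (black square). There are 20 flanking genes for each factor and 12 for ZNF750, which stands below all of its neighbours in all 3 knockouts.

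Some factors overlap genes on the opposite strand, and the use of strand in counting is not stated, so reads from such a pair may not be separated. ZNF750 lies opposite TBCD, a tubulin-folding cofactor gene, which was at 16.5, 15.8 and 17.1 TPM in Control, 16.7 TPM in A2ko, 17.3 TPM in A8ko, and 17.1 and 19.2 TPM in C9ko. TBCD thus did not share the low ZNF750 values. The start of GRHL2 is overlapped by an antisense RNA, ENSG00000254024, at 33.9, 27.8 and 27.0 TPM in Control, 12.4 TPM in A2ko, 18.1 TPM in A8ko, and 19.7 and 22.3 TPM in C9ko. That RNA was lowest in A2ko, as GRHL2 was, and lay below Control in all 4 knockout libraries. It fell by 0.47 in C9ko (SE 0.11, limma adjusted p = 0.0218). PITX1-AS1, TFAP2A-AS1 and TFAP2A-AS2 were also tested and were not called in C9ko. GRHL3-AS1 did not exceed 0.0604 TPM in any library.

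Relatives of the factors were mixed in C9ko. Of 13 tested family members, 5 rose, 1 fell and 7 did not pass the test in the deposited TPM, while 4 rose and 4 fell with median-of-ratios scaling. Among all tested genes 22.0% were called higher and 7.42% lower in the deposited TPM. Calls over all 17100 genes shifted as well, from 5038 with 3770 higher to 4813 with 2626 higher after median-of-ratios scaling. The 13 had medians for A2ko, A8ko and C9ko of -0.26, -0.14 and 0.16, against 0.12, 0.09 and 0.11 over all tested genes. KLF7, a factor of neuronal and epithelial cells, rose from 18.1 ± 0.135 TPM (SD, n = 3) to a mean of 41.6 TPM, a difference of 1.15 (limma adjusted p = 5.58e-05), with 11.8 TPM in A2ko and 14.6 TPM in A8ko. KLF6 rose by 0.60 (limma adjusted p = 0.00133), KLF9, a glucocorticoid-responsive factor, by 0.64 (0.00268) and GRHL1, a regulator of desmosomal genes, by 0.55 (0.00739). TFAP2C, the AP-2 gene tested in this list, was at 26.0 ± 1.68 TPM (SD, n = 3) in Control and 34.0 TPM in C9ko. TFAP2C rose by 0.38 (limma adjusted p = 0.0107), as TFAP2A did, but only TFAP2A was called after median-of-ratios scaling. KLF13 fell by 0.31 (0.0247). Of the p53 family, TP73 was at 29.1, 28.7 and 29.2 TPM in Control, 41.5 TPM in A2ko, 26.1 TPM in A8ko, and 26.8 and 28.4 TPM in C9ko. TP73 was thus highest in A2ko, where TP63 was lowest. The ratio of TP63 to TP73 was 9.68 ± 0.428 (SD, n = 3) in Control, up to 11.5 in C9ko, 10.1 in A8ko and 4.67 in A2ko.

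Other transcription factors of epithelial and squamous cells included both rises and falls in C9ko. Of 22 tested, 4 rose, 12 fell and 6 did not pass, with medians for A2ko, A8ko and C9ko of -0.15, -0.49 and -0.46. Over all tested genes 22.0% were called higher and 7.42% lower in C9ko, and the medians were 0.12, 0.09 and 0.11. SOX2, a partner of p63 in squamous carcinoma, was at 10.5, 10.1 and 9.87 TPM in Control, 0.404 TPM in A2ko, 0.483 TPM in A8ko, and 0.319 and 0.150 TPM in C9ko. All 4 knockout libraries were thus under 1 TPM, and SOX2 fell by 3.18 in C9ko (limma adjusted p = 1.77e-05). SOX2 also fell by 3.03 with the knockouts as 1 group (limma adjusted p = 0.00173). It was the only factor of the list called there, against 1.03% of all tested genes. ID1, an inhibitor of basic helix-loop-helix factors, fell by 1.59 in C9ko (limma adjusted p = 0.000119), CEBPA by 1.39 (0.000156) and BARX2, a homeobox factor, by 1.18 (0.000646). CEBPB rose by 0.86 (0.000688), FOXE1 by 0.59 (0.00605), EHF, an epithelial ETS factor, by 0.53 (0.00233) and RUNX1 by 0.51 (0.00142). SOX2, TP63 and TP73 differed in pattern. The A2ko library held the lowest TP63, the highest TP73 and a SOX2 level like that of the other knockouts.

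Genes of the basal layer and its adhesion structures, linked to p63, moved in both directions. Of 20 tested, 6 rose, 8 fell and 6 did not pass in C9ko, with medians for A2ko, A8ko and C9ko of -0.29, -0.09 and -0.07. The shares over all tested genes were 22.0% higher and 7.42% lower in C9ko, with medians of 0.12, 0.09 and 0.11. ITGA3, an integrin chain of epithelial adhesion, rose by 0.94 (limma adjusted p = 0.000101). LAMB3 and LAMA3, which encode laminin chains of the basement membrane, rose by 0.93 (0.000164) and 0.70 (0.000523). Among the genes that fell, KRT15, a basal keratin, went from 1871 ± 62.2 TPM (SD, n = 3) to 416 TPM, a fall of 2.17 (8.92e-06). BMP7 fell by 2.83 (1.77e-05), PKP1, a desmosomal plaque gene, by 2.04 (1.63e-05) and KRT14 by 1.61 (8.16e-05). KRT14 was at 313 TPM in A2ko and 867 TPM in A8ko, against 3877 ± 375 TPM (SD, n = 3) in Control. With the knockouts as 1 group only PKP1 of this list was called (limma adjusted p = 0.0276), against 1.03% of all tested genes.

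Most differentiation genes linked to KLF4, GRHL3, OVOL1 and ZNF750 fell in C9ko, although KLF4 and OVOL1 rose there. Of 35 listed genes 23 were tested, and 3 rose, 17 fell and 3 did not pass, where 22.0% of all tested genes rose and 7.42% fell. The medians for A2ko, A8ko and C9ko were -0.74, -1.53 and -0.98, against 0.12, 0.09 and 0.11 over all tested genes. KRT4, a suprabasal keratin of oral mucosa, went from 199 ± 2.82 TPM (SD, n = 3) to 1.11 TPM, a fall of 6.58 (limma adjusted p = 1.96e-06). KRT4 was at 37.7 TPM in A2ko and 0.106 TPM in A8ko. Its partner KRT13 fell by 4.95 (5.70e-06) from 93.6 ± 4.40 TPM (SD, n = 3) to 2.09 TPM, and was at 83.1 TPM in A2ko and 2.23 TPM in A8ko. KRT4 and KRT13 were thus both near 0 in A8ko and C9ko, while A2ko kept KRT13 near its Control level. KRT1 fell by 3.73 (7.32e-06) and KRTDAP, a secreted product of differentiating keratinocytes, fell by 3.03 (0.000184). KRT80 rose by 1.90 (1.77e-05), SPRR3 by 1.53 (0.00169) and CNFN by 1.10 (0.00679). With the knockouts as 1 group, where 1.03% of all tested genes were called, 7 of the 23 were called, all lower. Among them were KRTDAP (limma adjusted p = 0.00175) and KRT1 (0.0308). These calls depended on the Control libraries, since leaving out any 1 of them left 5 to 11 called genes in all, against 176.

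Several junction genes linked to GRHL2 rose in C9ko, while GRHL2 itself was not called. Of 20 tested in C9ko, 9 rose, 2 fell and 9 did not pass, with medians for A2ko, A8ko and C9ko of 0.12, 0.31 and 0.23. Over all tested genes 22.0% rose and 7.42% fell in C9ko, and the medians were 0.12, 0.09 and 0.11. CDH1, which encodes E-cadherin, was at 105, 100.3 and 106 TPM in Control, 138 TPM in A2ko, 141 TPM in A8ko, and 170.2 and 177 TPM in C9ko. All 4 knockout libraries were above Control, and CDH1 rose by 0.74 in C9ko (limma adjusted p = 0.000249). OCLN, a tight junction gene, rose by 0.91 (0.00236), ST14, a membrane protease gene, by 0.81 (0.000194) and CDH3 by 0.79 (0.000186). RAB25, an epithelial trafficking gene, fell by 1.05 (7.19e-05) and DSP, the main desmosomal plaque gene, by 0.98 (0.000101). DSP was the only gene of the list called with the knockouts as 1 group, against 1.03% of all tested genes. DSP fell by 0.96 there (limma adjusted p = 0.0269).

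Mesenchymal regulators, which OVOL1 and GRHL2 are known to hold down, were partly absent. ZEB1, ZEB2, TWIST2, PRRX1 and VIM did not pass the filter, and VIM reached 3.12 TPM in A8ko. Of the 7 tested genes of this list 4 rose in C9ko, none fell and 3 did not pass, with medians for A2ko, A8ko and C9ko of 0.83, 0.56 and 0.66. The shares over all tested genes were 22.0% higher and 7.42% lower in C9ko, with medians of 0.12, 0.09 and 0.11. SPARC, a matrix glycoprotein gene, was at 217, 206 and 207 TPM in Control, 374 TPM in A2ko, 400.3 TPM in A8ko, and 507 and 528 TPM in C9ko. SPARC was above Control in all 4 knockout libraries and rose by 1.30 in C9ko (limma adjusted p = 3.35e-05). FN1 rose by 1.85 (6.47e-05), CDH2 by 1.04 (0.000555) and ITGA5 by 0.66 (0.000581). FN1 was at 8.44 ± 0.586 TPM (SD, n = 3) in Control, 33.2 TPM in C9ko and 24.7 TPM in A8ko, but 4.08 TPM in A2ko. The regulators SNAI1, SNAI2 and TWIST1 were not called. With the knockouts as 1 group CDH2 (limma adjusted p = 0.0228) and SPARC (0.0276) rose, where 1.03% of all tested genes were called.

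**Figure D4:**
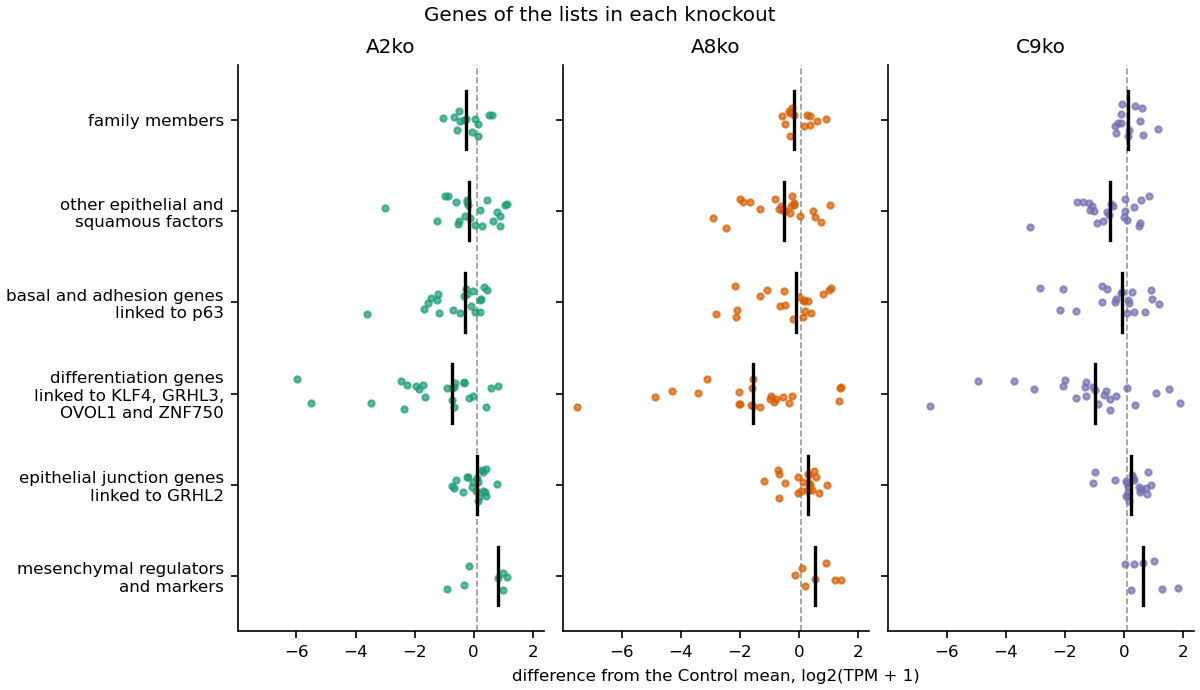
Difference from the Control mean on the log2(TPM + 1) scale for the tested genes of 6 lists in A2ko, A8ko and C9ko. Each point is 1 gene, the black bar the list's median and the dashed line the median of all tested genes, and the differentiation list has the lowest median in all 3 knockouts (-0.74, -1.53 and -0.98).

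For the 4 factors whose highest and lowest libraries differed by at least 1 log2 unit, the genes most like them over the 7 libraries were sought among 10823 genes with a mean of at least 5 TPM. The measure was Pearson's r of log2(TPM + 1), given as a description, since the 7 points fall into 4 groups that all genes share. KLF5 was followed most closely by PRODH (r = 0.999), a proline dehydrogenase gene, and KRT15 (0.998). PRODH was at 9.31, 9.75 and 11.5 TPM in Control, 6.62 TPM in A2ko, 0.203 TPM in A8ko, and 0.927 and 1.22 TPM in C9ko. ZNF750 was followed by KLK11 (0.998), a kallikrein protease gene, and SCNN1A (0.994), a sodium channel subunit gene. KLK11 was at 17.5, 19.6 and 17.6 TPM in Control, 10.2 TPM in A2ko, 1.27 TPM in A8ko, and 4.59 and 4.71 TPM in C9ko. KLK11, like ZNF750, was lowest in A8ko and nearest to Control in A2ko. OVOL1 was followed by MAP3K9-DT (0.994) and VGLL2 (0.993), a cofactor of TEAD factors, and GRHL3 by IGFBP3 (0.992) and FUT2 (0.988). VGLL2 was at 5.31 to 6.30 TPM in Control, 5.47 TPM in A2ko, 19.8 TPM in A8ko, and 29.7 and 29.6 TPM in C9ko.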

How the data were processed

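Per the labels' protocols, RNA was taken with TRIzol, and dUTP libraries of polyA RNA were made from 2 ug of total RNA per sample. The deposited values are TPM per Ensembl gene, computed by the authors, with the build hg38 per the submitters' processing notes. The aligner, quantifier, annotation release and use of strand are not given in the sources used here. Symbols were found for 61463 of 78894 identifiers, and positions for 57342 in GENCODE 29 on GRCh38. The members and lists were chosen with earlier results of these data known.

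Identical files were counted once. Genes with at least 1 TPM in at least 2 distinct libraries were tested (17100 genes), as log2(TPM + 1). limma 3.58.1 in R 4.3.3 (lmFit, eBayes with trend, two-sided) fitted all 4 groups for C9ko against Control, and 1 value per knockout against 3 Control libraries for the knockouts together, with p-values adjusted over all tested genes by the Benjamini-Hochberg method and a threshold of 0.05. A2ko and A8ko were described against the Control range, with at least 1 log2 unit from the mean counted as outside. All members were named, and of each list up to 4 genes per direction with the largest size among those called in C9ko. Genes of the family and mesenchymal lists at 1 TPM or more could be named in full, and up to 2 most similar genes were named per member. One gene that this rule would name is not reported here. Other genes named, such as the neighbours and markers, fall outside this rule. Alternatives were another pseudocount (0.1 TPM), no filter, a mean of at least 5 TPM, median-of-ratios scaling, no mitochondrial genes, all 9 files, the replicate number as a block, and each library or knockout left out. List counts under 2 other settings were added after seeing the data.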

Additional observations from a re-analysis of the deposited data

Results flagged for a closer look

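Of the 9 factors and the other genes named, 18 had at least 1 knockout with its libraries all above every Control library and another with its libraries all below. Each value below is the gap between the highest and the lowest such difference from Control on the log2(TPM + 1) scale. None of these gaps was tested, because A2ko and A8ko have 1 distinct library each. The share of all tested genes with such opposite directions was not counted, so the 18 cannot be set against it. Lying outside the Control libraries was common by itself. Of all tested genes, 50.4% lay above and 26.3% below in A2ko, 46.9% and 26.4% in A8ko, and 41.1% and 16.4% in C9ko. Of the 9 factors, the gap was 0.67 for TP63, 0.84 for KLF4, 0.37 for PITX1 and 0.42 for TFAP2A, each above Control in C9ko and below it in A2ko. Among relatives KLF7 (1.73), KLF9 (1.26) and KLF6 (1.67) had the same directions in C9ko and A2ko, whereas TP73 (0.65) was below Control in C9ko and above it in A2ko. For KLF9 and KLF6 the highest difference was that of A8ko (0.93 and 0.61), and for TP73 the lowest was that of A8ko (-0.14). Of the other factors, FOXE1 (1.11) and EHF (1.12) were above Control in C9ko and below it in A2ko, and ID1 (2.22) was the reverse. The lowest ID1 difference was that of A8ko (-2.00). Of the basal genes LAMA3 (0.79) was above Control in C9ko and below it in A2ko, and BMP7 (3.19) was below Control in C9ko and above it in A2ko. SPRR3 (2.27) of the differentiation list and FN1 (2.75) of the mesenchymal list were above Control in C9ko and below it in A2ko. SNAI2 (0.57) was above Control in A8ko and below it in A2ko, with C9ko overlapping Control. OLFM4 (5.48), of the flanking set of KLF5, was above Control in A2ko and below it in A8ko and C9ko. CD68 (2.15) was above Control in A2ko and A8ko and below it in C9ko. After median-of-ratios scaling TP63 and PITX1 overlapped Control in C9ko, and OVOL1 lay below Control in A2ko and above it in C9ko.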

How the results depend on the processing

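No called difference changed sign under the alternatives run. Uncalled differences that did were, for the knockouts as 1 group, TP63 (-0.15, then 0.032 without A2ko), PITX1 (-0.06, then 0.032 without A2ko) and KLF4 (0.19, then -0.040 without C9ko), and OVOL1 in A2ko (-0.01, then 0.04 without Control replicate 3). The count of factors called in C9ko was 6 in the fit reported, 5 when any 1 Control or C9ko library was left out, and 4 with the replicate number as a block. Of all tested genes 5038 were called in C9ko. That count was 8166 with the 9 files as separate libraries, 3248 with the replicate block over Control and C9ko only, and 3301 to 4174 when 1 Control or C9ko library was left out, lowest without C9ko replicate 2. Same-numbered Control and C9ko samples did not deviate together (r of -0.05 and -0.01). Both C9ko libraries deviate from their mean by equal and opposite amounts, so these values cannot decide if the numbers mark pairs. For the knockouts together 176 genes were called. The count was 23 without the filter, 4361 when averaged within the fit of 4 groups, 1993 without A2ko, 67 without C9ko, and 5 to 11 when 1 Control library was left out. The factors called there were 0, and 6 when averaged within the fit of 4 groups and 4 without A2ko. Of the lists, the family members called lower in C9ko were 4 instead of 1 after median-of-ratios scaling. Calls over all tested genes shifted as well, from 5038 with 3770 higher to 4813 with 2626 higher. TPM keeps no depth, so the precision of the lowest factor, GRHL3, is unknown, and A2ko and A8ko rest on 1 library each.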
